A study of Mus musculus with 26 samples.

Results

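The genes described here are the cytosolic ribosomal proteins, the protein subunits of the ribosomes that translate nuclear-encoded mRNA. They were chosen by symbol only, as RPL or RPS followed by a number and at most 1 letter, together with RPLP0, RPLP1, RPLP2 and RPSA. The rule found 82 genes among the 20409 symbols listed in any of 4 expression tables, and 78 of them were listed in all 4. RPL32L, RPL39L, RPL3L and RPL6L, which are paralogs or copies of other members, were each missing from at least 1 table. By table the rule found 80 of 16827 symbols in the day 6 SMAD1/5 table, 81 of 17112 in the day 6 SMAD4 table, 79 of 15653 in the day 30 SMAD table and 81 of 18155 in the day 30 TBX3 table.

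The tables held FPKM values, fragments scaled by gene length and by library size, from polyA-selected RNA of whole epithelium of the mouse proximal small intestine in 26 libraries. Every mutant group carried Villin-CreERT2, a Cre recombinase made in the intestinal epithelium and activated by tamoxifen, and received tamoxifen injections on 4 consecutive days. SMAD1 and SMAD5 are the transcription factors that carry BMP signals, SMAD4 is their shared partner, and TBX3 belongs to the T-box family of transcription factors. At day 6 after the first injection there were 3 SMAD1/5 iDKO libraries (SMAD1 and SMAD5 lost) with 3 controls, and 2 SMAD4 iKO libraries with 2 controls. At day 30 there were 2 SMAD1/5 iDKO and 3 SMAD1/4/5 iTKO libraries, which shared 5 controls, and 3 TBX3 iKO libraries with 3 controls. The control kinds differed. The day 6 SMAD1/5 controls and day 30 controls 1 and 2 (SMAD1/5 line) had tamoxifen and, per the labels' protocol, no Cre, whereas day 30 controls 3 to 5 (SMAD1/4/5 line) and the SMAD4 and TBX3 controls carried Cre and had corn oil. No control had both Cre and tamoxifen, so Cre activity and the gene losses cannot be told apart. The labels call the libraries replicates without naming the animals, so the p-values measure the spread between these libraries. Age and strain are not given in the sources used here.

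A ribosome joins a small subunit, which reads the mRNA and whose proteins are named RPS, to a large subunit, which forms the peptide bond and whose proteins are named RPL. Ribosomal protein mRNAs are among the most abundant in dividing cells, and in the intestine ribosome production is high in the cycling cells of the crypt. Many of these mRNAs start with a run of pyrimidines, the 5′ terminal oligopyrimidine or TOP element, through which the mTOR pathway controls their translation. Mammalian genomes also hold many processed copies of ribosomal protein mRNAs, usually without introns, and a short read can fit a gene and its copies equally well.

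Because such copies can bear on the values below, the likeness was measured first, in 50-base words of coding sequence only. Of 79 members with a coding sequence in GENCODE release M21 of the mouse, 29 had every 50-base word of that sequence in at least 1 other annotated gene, and 65 had at least 50% of the words elsewhere. There were 3 with none, among them RPL39L and RPL3L. The median member shared 90.3% of its words, with a median of 9 other genes, and RPL7A shared words with 123. Annotated copies (pseudogenes named for a member, or pseudogene or Gm rows holding at least 25% of its words) were listed in the tables as 217 rows of their own, for 60 members. They were listed unevenly: 185 in the day 6 SMAD1/5 table, 164 in the day 30 SMAD table, 208 in the day 30 TBX3 table and 16 in the day 6 SMAD4 table.

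The stretches below show how little separates 4 members, on which results turn, from rows listed beside them. Each is 120 bases of coding sequence from GENCODE M21, with the differing bases in capitals in both. RPLP0 (mouse chromosome 5) and GM8730 (chromosome 8) differed at 12 of 951 bases compared, a 98.7% identity. RPSA (chromosome 9) and RPSA-PS10 (chromosome 3) differed at 6 of 885 bases. RPS6 (chromosome 4) and RPS6-PS4 (chromosome 2) did not differ at any of 747 bases, so only 1 of their sequences is printed. RPS18 (chromosome 17) and RPS18-PS3 (chromosome 8) differed at 3 of 456 bases.
RPLP0, bases 383 to 502: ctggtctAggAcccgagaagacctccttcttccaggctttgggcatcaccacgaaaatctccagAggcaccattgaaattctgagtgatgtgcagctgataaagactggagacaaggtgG
GM8730: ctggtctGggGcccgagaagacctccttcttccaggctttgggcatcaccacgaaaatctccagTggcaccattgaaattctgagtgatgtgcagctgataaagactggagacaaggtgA
RPSA, bases 100 to 219: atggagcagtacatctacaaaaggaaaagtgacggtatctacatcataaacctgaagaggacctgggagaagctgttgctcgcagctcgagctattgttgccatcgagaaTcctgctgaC
RPSA-PS10: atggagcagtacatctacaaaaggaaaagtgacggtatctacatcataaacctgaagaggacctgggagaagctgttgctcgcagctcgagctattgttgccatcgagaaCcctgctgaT
RPS6 and RPS6-PS4, bases 1 to 120: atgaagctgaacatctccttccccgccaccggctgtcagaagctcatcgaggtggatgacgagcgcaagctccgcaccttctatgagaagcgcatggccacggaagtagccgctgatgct
RPS18, bases 311 to 430: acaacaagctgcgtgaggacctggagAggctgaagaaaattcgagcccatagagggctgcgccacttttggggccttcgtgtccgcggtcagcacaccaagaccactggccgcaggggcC
RPS18-PS3: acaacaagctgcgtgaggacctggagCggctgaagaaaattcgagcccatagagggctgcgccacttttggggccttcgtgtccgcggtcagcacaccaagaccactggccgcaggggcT
The longest identical runs were 167 bases for RPLP0, 350 for RPSA, 747 for RPS6 and 180 for RPS18, against reads of 150 bases.

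RPL29 is shown for the same reason. It shared 90.3% of its words with 84 other genes, and none of them was listed as a copy row by the rule above. Among them GM6344 (chromosome 13) differed from RPL29 at 3 of 480 bases compared, the whole coding sequence. A stretch nearly identical to RPL29 lies within the gene model of UIMC1 (chromosome 13, with RPL29 on chromosome 9), a protein of the DNA damage response. RPL29 and UIMC1 differed at 1 of 416 bases compared, with an identical run of 299 bases, and the base that differs is in capitals.
RPL29, bases 181 to 300: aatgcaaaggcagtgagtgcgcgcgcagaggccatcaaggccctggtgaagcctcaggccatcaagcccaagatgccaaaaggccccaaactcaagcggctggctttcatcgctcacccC
UIMC1: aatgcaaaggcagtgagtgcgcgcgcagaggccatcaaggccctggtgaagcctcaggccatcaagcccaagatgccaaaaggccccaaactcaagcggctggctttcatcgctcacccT

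The start sites were read as well, since the members moved together at day 6. RefSeq promoters (GRCm38.p6) were matched for 60 members. Pyrimidine motifs were searched in 3 forms that can overlap. The first was CTTTC, the second, seen in RPS7, was CTTCC, and the third, seen in RPL7A, was CTCTT. At least 1 of them, on the transcript's strand from 15 bases before to 15 after the start, stood in a promoter of 28 members, 46.7%, and of 15.02% of 27025 genes. The letters CCGGAAG, a motif of ETS factors, stood on either strand from 250 bases before to 50 after the start in 25 members, 41.7%, and in 9.93% of all genes. Read on the other strand, CCGGAAG holds CTTCC, so both searches can count the same bases, as in RPS7. The windows below are those of named members with an entry there that rose in the day 6 SMAD1/5 iDKO, with pyrimidine motifs in capitals, on the strand of the transcript. The windows of RPL13A, RPL18, RPL7A and RPS7 held a match, and those of RPL27, RPL19, RPL41 and RPS27L, with more than 1 start for RPL19 and RPS27L, held none.
RPL13A, chr7:45128731-45128760, minus strand: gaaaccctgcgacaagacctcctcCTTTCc
RPL18, chr7:45718056-45718085, plus strand: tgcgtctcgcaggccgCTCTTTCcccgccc
RPL7A, chr2:26910792-26910821, plus strand: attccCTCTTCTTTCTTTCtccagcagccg
RPS7, chr12:28635939-28635968, minus strand: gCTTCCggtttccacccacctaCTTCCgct
RPL27, chr11:101442230-101442259, plus strand: acgctctgttcctgtctgctgctcgtgctg
RPL19, chr11:98026695-98026724, plus strand: tgaccaaacgccctcactgcgcatgtgcgc
RPL19, chr11:98026909-98026938, plus strand: tgggctctccccttcgcagataatgggcgg
RPL41, chr10:128549154-128549183, minus strand: cacacgggccggctcggaagtgacgacacc
RPS27L, chr9:66946071-66946100, plus strand: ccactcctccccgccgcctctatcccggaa
RPS27L, chr9:66946398-66946427, plus strand: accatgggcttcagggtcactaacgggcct

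Within a table most members were abundant. The median member's mean in the controls was 77.1 FPKM in the day 6 SMAD1/5 table, 508 in the SMAD4 table, 282 in the day 30 SMAD table and 52.7 in the TBX3 table. The tables were scaled separately, so these levels are not compared with each other. RPLP1, a protein of the acidic stalk that recruits translation factors to the large subunit, was the highest member per length in 3 tables, at 606, 2240 and 267 FPKM, and RPL4 in the day 30 SMAD table at 723. Members of restricted tissues were near 0. RPL3L, the muscle paralog of RPL3, reached at most 0.196 FPKM in any library of the day 6 SMAD1/5 table, and RPL39L, a paralog of RPL39 known from testis, at most 0.365 in the SMAD4 table.

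Some ubiquitous members were low among the members of 3 tables and nearer the median member in the SMAD4 table, with the tables scaled separately. The median member of the 4 SMAD4 libraries stood at 487, 538, 644 and 678 FPKM, above both RPL24 and RPL13A. RPL24, a large subunit protein, stood between 0 and 2.12 FPKM in every library of the day 6 SMAD1/5, day 30 SMAD and TBX3 tables, and at 314, 347, 402 and 460 in the 4 SMAD4 libraries. RPL13A, also of the large subunit, stood between 1.89 and 28.9 FPKM in those 3 tables and between 403 and 630 in the SMAD4 table. RPS6, the substrate of the S6 kinases, went the other way. It was at 15.03, 16.3, 19.1 and 20.1 FPKM in the SMAD4 table, where its identical copy RPS6-PS4 was at 547, 589, 760 and 788. In the other tables the copy held between 2.62% and 9.75% of the pair. RPL24 has no listed copy row, and the 1 listed for RPL13A, GM11478, was at 3.31 FPKM at most. What sets these members apart between tables was not tested.

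The members' share of all summed FPKM gives their joint level (the plot of shares by library). In the day 6 SMAD1/5 table it was 3.06%, 1.98% and 2.79% in the controls and 3.38%, 3.56% and 3.46% in the iDKO libraries, so the groups did not overlap. The SMAD4 controls were at 6.43% and 7.64% and the SMAD4 iKO libraries at 8.91% and 10.05%, again without overlap. At day 30 the 5 controls ran from 3.27% to 4.28%, the 2 iDKO libraries were at 4.04% and 3.46%, and the 3 iTKO libraries ran from 3.19% to 3.95%, all overlapping. The TBX3 controls (1.37% to 2.17%) and iKO libraries (1.43% to 2.42%) overlapped as well. In bulk epithelium, fewer cells of a type and less RNA per cell cannot be told apart.

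**Figure D1:**
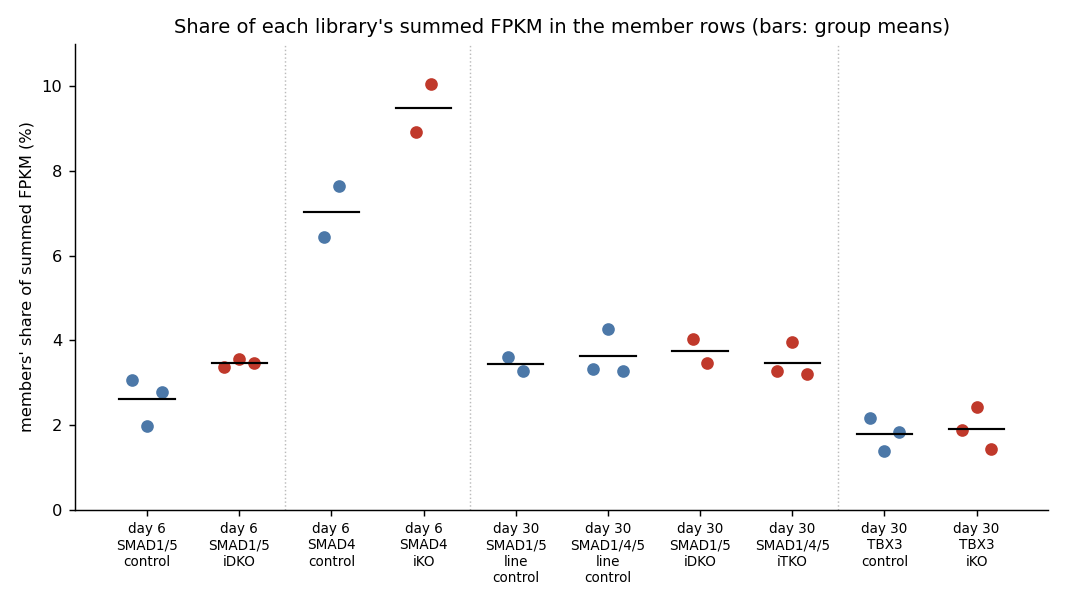
Members' share of summed FPKM (%, vertical axis from 0) in each library, by group (horizontal axis), with black bars for group means, controls in blue and mutants in red. At day 6 every mutant library is above every control of its table (3.38% to 3.56% against 1.98% to 3.06%, and 8.91% to 10.05% against 6.43% to 7.64%), and at day 30 the groups overlap.

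In the day 6 SMAD1/5 iDKO the ribosomal proteins were higher almost throughout, with RPL29 as the exception. Of 78 members tested, 10 rose, 12.8% against 15.5% of all 10827 genes tested, and 1 fell, against 8.26% of all genes, by limma on log2(FPKM + 0.5) with Benjamini-Hochberg adjustment over all genes. The share called was thus no larger than in the background. The direction was more uniform: 77 of 78 members had a log2 change above 0, against 68.5% of all genes, and in 62 of 78 every iDKO library was above every control, against 35.8%. Members of a library can shift together, so such counts are not separate pieces of evidence. The median log2 change was 0.46 for members and 0.18 for all genes, and it was similar for large subunit (0.46, 46 genes) and small subunit members (0.45, 32 genes). With the replicate number as a block, 5 members rose in place of 10, and 1 fell. When each library was centred on its median, 0 members rose, the median for members was 0.28 beside 0.01 for all genes, and 76 of 78 changes stayed above 0. All genes then split into 767 higher and 1193 lower in place of 1681 and 894.

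The members that rose did so by similar amounts. RPS27L, a paralog of RPS27 known as a p53 target, was at 71.4, 78.2 and 82.5 FPKM in the controls and 101, 118 and 103 in the iDKO (log2 0.47, adjusted p = 0.0226, limma). RPS27A, which is made as a fusion with ubiquitin, was at 51.3, 35.6 and 56.1 FPKM and then 73.3, 72.5 and 74.9 (log2 0.65, adjusted p = 0.0359, limma). In both genes the groups did not overlap. RPL13A, RPL18 and RPS7 rose too, with log2 changes of 0.58, 0.55 and 0.65 (limma adjusted p between 0.0331 and 0.0421), and RPL19, RPL27, RPL41 and RPL7A with changes of 0.40 to 0.56. With the replicate number as a block the 5 calls that remained included RPS27L, RPS27A, RPL13A and RPS7, while RPL18 (limma adjusted p = 0.0567), RPL41 (0.0539), RPL19, RPL27 and RPL7A were no longer past the threshold. RPL41, the shortest member, went from 206 ± 12.8 (SD, n = 3) to 271 ± 25.4 FPKM.

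The stalk proteins moved in the same direction without passing the threshold. RPLP0, the stalk base, was at 282, 168 and 318 FPKM in the controls and 412, 419 and 332 in the iDKO libraries (log2 0.64 ± 0.25, limma adjusted p = 0.0989). RPLP1 had 716, 472 and 630 and then 758, 905 and 795 FPKM, and RPLP2 had 67.9, 47.7 and 63.9 and then 71.3, 92.1 and 73.3. None of these 3 rows overlapped between groups, although RPLP0 did once its copies were added, as given below. RPL30 had the largest difference above 0 (log2 1.05 ± 0.57, limma adjusted p = 0.205), with controls at 18.6, 3.65 and 19.2 FPKM and iDKO libraries at 22.3, 25.3 and 22.9. RPL28 had the smallest (log2 0.12, 95% interval -0.14 to 0.38). The paralog RPS4L (log2 0.26, limma adjusted p = 0.546) and RPL36A (0.34, 0.161) overlapped between groups, and X-linked RPS4X (0.46, 0.126) and RPL22 (0.44, 0.0647) did not.

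Control 2 bore much of the size of these differences. It was the lowest of the 3 controls for 76 of 78 members, and the median member stood at 58.5 FPKM in it against 89.4 and 83.3 in the other controls and 92.0 to 103 in the iDKO libraries. Without it 5 members rose and the median log2 change was 0.27, against 0.14 for all genes, while 77 of 78 changes stayed above 0 and 63 of 78 members did not overlap (41.0% of all genes). The same library was low in crypt markers: the 18 stem and cycling genes summed to 436, 156 and 436 FPKM in the controls and 510, 271 and 436 in the iDKO libraries. The 10 Paneth cell markers summed to 10154, 76.7 and 8932 FPKM in the controls and 3036, 110 and 5219 in the iDKO libraries, with none at 0. The 9 goblet cell markers summed to 4169, 1024 and 5047 and then 2941, 2042 and 3148. The part of cell makeup in the members' differences was not tested. The depth read from the smallest FPKM steps was about 20.9, 21.7 and 28.2 megafragments in the controls and 28.2 to 30.5 in the iDKO libraries, and its part was not tested either.

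The RPL29 row, for a small protein on the surface of the large subunit, fell in the day 6 SMAD1/5 iDKO. It stood at 209, 72.8 and 92.2 FPKM in the controls and at 4.90, 4.45 and 3.65 in the iDKO libraries. Every iDKO library was thus far below every control, and the controls themselves spread 2.88-fold, second among members to RPL30 at 5.25-fold. The log2 change was -4.55 ± 0.37 (SE; limma adjusted p = 0.000670), and under the 17 other settings run it lay between -4.86 and -4.10 with adjusted p of at most 0.00599. The table lists no copy row of RPL29, and whether the difference lies in its RNA or in how reads were assigned was not tested. UIMC1, whose gene model holds the stretch printed above, was at 3.16, 3.60 and 2.70 FPKM in the controls and 3.71, 3.89 and 3.96 in the iDKO libraries. The day 30 SMAD1/5 iDKO libraries, with the same genes lost, had RPL29 at 294 and 264.6 FPKM, beside 267, 249, 253, 164 and 134 in the controls, and overlapped with them. In the SMAD4 table it was at 303 and 547 in controls and 614 and 439 in iKO libraries, and in the TBX3 table at 59.3, 39.5 and 47.9 and then 49.2, 75.1 and 44.5. Of the 26 libraries, these 3 alone were below 5 FPKM, and the next lowest was at 39.5, in tables scaled separately (the plot of RPL29 by library).

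**Figure D2:**
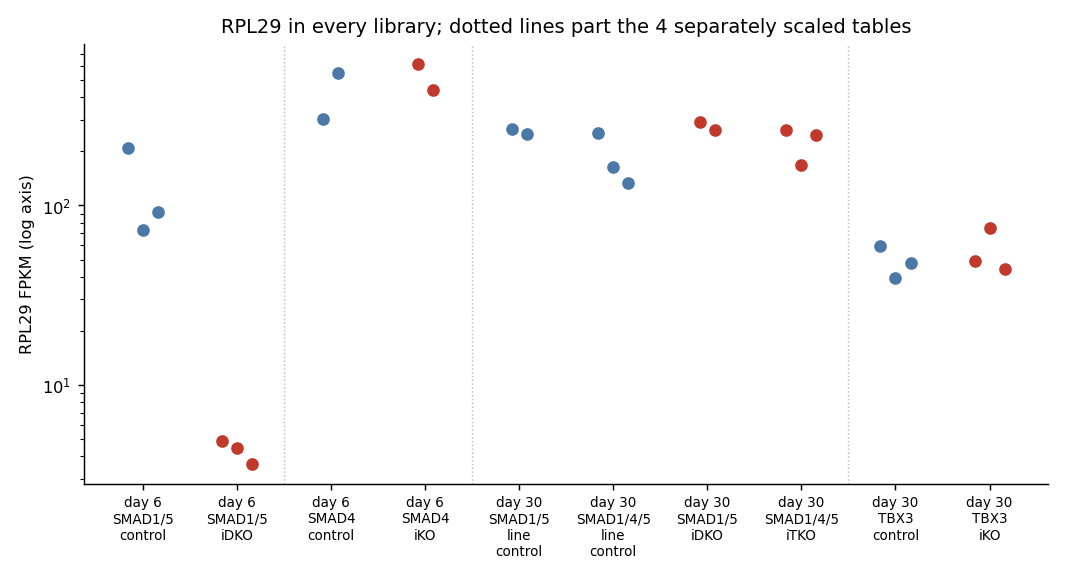
RPL29 FPKM (log vertical axis) in all 26 libraries by group (horizontal axis), controls in blue and mutants in red, with dotted lines between separately scaled tables. The 3 day 6 SMAD1/5 iDKO libraries stand at 3.65 to 4.90 FPKM against 72.8 to 209 in their controls.

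In the day 6 SMAD1/5 table the copy rows of RPLP0 and RPSA were high in some libraries and low in others. How reads were divided between member and copy was not tested. The rows of GM8730 and GM9625, both copies of RPLP0, summed to 141 and 86.5 FPKM in controls 1 and 2 and 164 in iDKO 3, and to between 1.08 and 1.79 in the other 3 libraries. RPSA, a small subunit protein also known as the laminin receptor, had 237, 98.6 and 124 FPKM in the controls and 170, 189 and 180 in the iDKO libraries, and overlapped (log2 0.33, limma adjusted p = 0.426). RPSA-PS10 was at 6.41 FPKM in control 1 and between 98.8 and 201 in the other 5 libraries, where it held 50.1% to 52.9% of the pair. The sum of the pair was 243, 197 and 262 FPKM in the controls and 347, 390 and 364 in the iDKO libraries, without overlap. With members and copies summed, an alternative chosen after seeing the data, RPSA rose (log2 0.66, limma adjusted p = 0.0172), RPLP0 had a log2 change of 0.44 (adjusted p = 0.136), and RPL13A (adjusted p = 0.0891) and RPS7 (0.114) were no longer past the threshold, with 10 members called in all. The RPLP0 sums overlapped, at 422, 255 and 319 FPKM in the controls and 414, 421 and 495 in the iDKO libraries. The 89 copy rows that could be tested had a median log2 change of 0.35. Of these 7 rose, beside 15.5% of all 10827 genes tested.

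**Figure D3:**
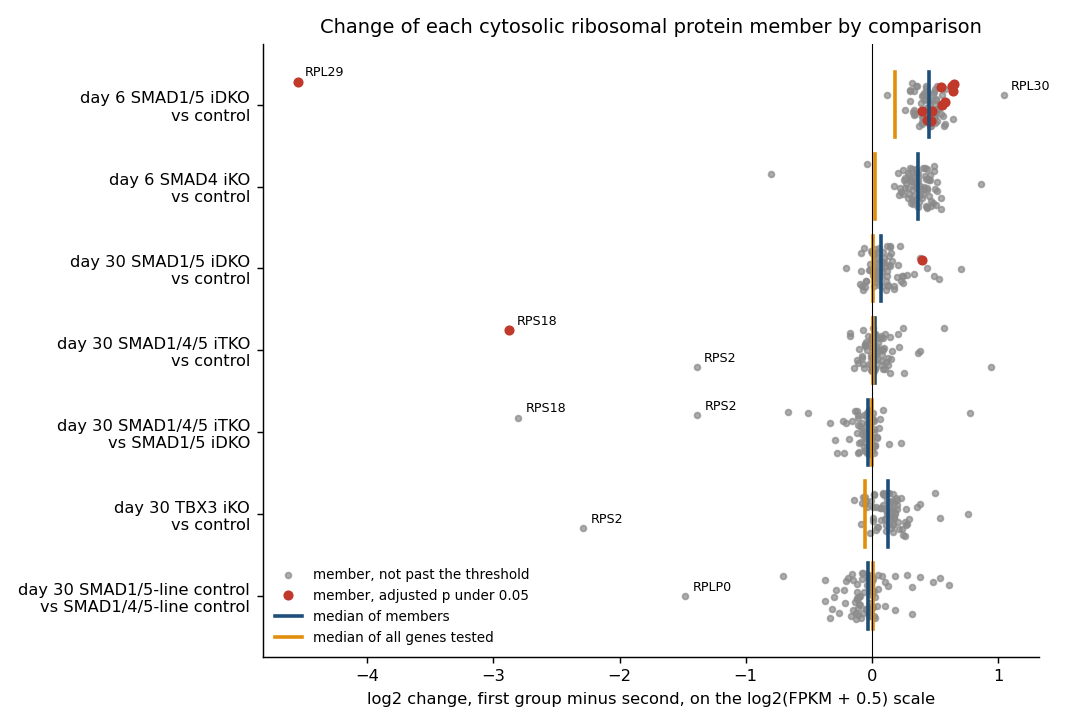
Log2 change (horizontal axis, log2(FPKM + 0.5) scale) of each tested member in 7 comparisons (vertical axis), red where the adjusted p was under 0.05, with the medians of members (blue) and of all genes tested (orange). At day 6 the members' median is 0.46 in the SMAD1/5 iDKO and 0.36 in the SMAD4 iKO, beside 0.18 and 0.03 for all genes. At day 30 the members' medians lie between -0.03 and 0.13.

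In the day 6 SMAD4 iKO no member passed the threshold, but the direction was nearly uniform. Of 79 members tested with limma, 0 rose and 0 fell, against 1.28% and 2.14% of all 12202 genes tested. At an unadjusted p under 0.05, 49 were higher (10.8% of all genes) and 1 was lower, and the 50 in either direction stand beside 20.8% of all genes. The log2 change was above 0 for 77 of 79 members, against 53.0% of all genes, and in 73 of 79 both iKO libraries were above both controls, against 29.1%. The median was 0.36 for members and 0.03 for all genes. Where the table was rescaled to the same sum over all genes but the members, the median for members was 0.46 and that for all genes 0.12. The counts by direction do not treat members as independent, since those of a library can shift together. Uneven directions also occurred where shares overlapped: 67 of 78 members were above 0 in the TBX3 iKO. Between the day 30 control kinds only 23 of 79 were.

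RPLP0 had the smallest adjusted p of the members there (0.0818, limma), with 588 and 634 FPKM in the controls and 882 and 901 in the iKO libraries, a log2 change of 0.55 ± 0.12. RPSA was at 306 and 350 and then 456 and 504 FPKM (log2 0.55, limma adjusted p = 0.112). RPLP1 was at 2218 and 2261 and then 2884 and 3318 FPKM, and RPS27A at 370 and 387 and then 480 and 542. These 4 did not overlap between groups. RPS18, a protein of the head of the small subunit, had the largest difference above 0 (log2 0.87 ± 0.35, limma adjusted p = 0.246), carried by 1 library: 476 and 540 FPKM in the controls, 644 and 1328 in the iKO. In that second iKO library the copy RPS18-PS4 was at 2.82 FPKM, against 55.7, 66.0 and 71.3 in the other 3. RPS4L went the other way, with 16.9 and 27.2 FPKM in the controls and 13.01 and 11.3 in the iKO libraries (log2 -0.80, limma adjusted p = 0.171), while RPS4X, the gene it resembles, was at 488 and 538 and then 632 and 615.

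The SMAD4 libraries also differed in cell type markers. The 10 Paneth cell markers summed to 30532 and 2326 FPKM in the controls and 11827 and 2656 in the iKO libraries. The 11 T cell markers listed summed to 159 and 128 and then 44.7 and 71.8, and the 18 crypt markers overlapped, at 641 and 483 and then 631 and 553. The part of these in the members' differences was not tested. The depth of these 4 libraries is unknown, since their FPKM showed no clear step.

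At day 30 the members of the SMAD1/5 iDKO were close to their controls. Of 79 tested, 1 rose, against 9.43% of all 11939 genes tested, and 0 fell, against 9.31% (limma). At an unadjusted p under 0.05, 0 were lower, against 15.4% of all genes. Changes were above 0 for 65 members, against 51.4% of all genes, and the median was 0.07 for members and 0.01 for all genes. The member that rose was RPL27, a large subunit protein, with 233, 234, 258, 289 and 270 FPKM in the controls and 363 and 313 in the iDKO libraries (log2 0.40 ± 0.12, limma adjusted p = 0.0404). The groups did not overlap, but the call held under only 7 of 20 other settings, with adjusted p up to 0.316. Fitted with the replicate number as a block, no member rose.

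RPS27L, which rose at day 6, had 229, 199, 161, 193 and 174 FPKM in the day 30 controls and 372 and 203 in the iDKO libraries (log2 0.53 ± 0.20, limma adjusted p = 0.0937). Only the first iDKO library stood above the controls. RPL30 (log2 0.71), RPS27A (0.49) and RPL29 (0.44) had limma adjusted p of 0.442, 0.348 and 0.305 and overlapped. RPLP1 (log2 0.14, 95% interval -0.19 to 0.47) and RPLP2 (-0.01, -0.36 to 0.33) overlapped as well. RPLP0 had a log2 change of -0.21 (limma adjusted p = 0.801) whose sign depended on the setting. It was 0.68 (0.0727) with only the controls of the same line, 0.41 (0.599) with the replicate number as a block, 0.13 (0.935) without iDKO 1 and 0.09 (0.720) with copies summed. The difference between the day 6 and day 30 changes was not tested, since the tables were scaled separately.

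In the day 30 SMAD1/4/5 iTKO, compared with the same 5 controls, 0 of 79 members rose, against 9.13% of all genes, and 1 fell, against 8.95% (limma). At an unadjusted p under 0.05, 1 was higher, against 15.9% of all genes. The log2 change was above 0 for 52 members, against 51.5%, and the median was 0.03 for members and 0.01 for all genes. The member that fell was RPS18, at 467, 411, 245, 548 and 229 FPKM in the controls and 20.6, 24.3 and 223 in the iTKO libraries (log2 -2.87 ± 0.68, limma adjusted p = 0.0147). The groups did not overlap, but the mutant libraries differed widely: iTKO 1 and 2 were far below every control, and iTKO 3 was just below the lowest controls. Without iTKO 1 or without iTKO 2 the call was lost (adjusted p = 0.0657 and 0.0652, limma), as it was with the replicate number as a block (0.0878).

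Across all 10 libraries RPS18 fell into 3 ranges that followed the genotypes only in part. The lowest held only iTKO libraries, and the middle held control, iDKO and iTKO libraries. Controls 1, 2 and 4 and iDKO 1 had 411 to 548 FPKM, controls 3 and 5, iDKO 2 and iTKO 3 had 223 to 245, and iTKO 1 and 2 had 20.6 and 24.3. Its listed copy RPS18-PS3 was highest in iTKO 1 and 2, at 5.99 and 6.23 FPKM. The difference for members and copies summed was -2.65 (limma adjusted p = 0.0139). RPS2, another small subunit protein, had a similar pattern, with 801, 682, 364, 804 and 384 FPKM in the controls, 747 and 435 in the iDKO, and 363, 77.3 and 369 in the iTKO libraries (iTKO log2 -1.39 ± 0.50, limma adjusted p = 0.0820). For RPS2 a copy row moved the opposite way by larger amounts. RPS2-PS10 was at 0.818 to 1.94 FPKM where RPS2 was above 600, at 102 to 140 where RPS2 was 363 to 435, and at 302 in iTKO 2. With copies summed the RPS2 change was -0.50 (limma adjusted p = 0.109). In RPL30 the libraries split in another way, at 117 FPKM in control 3, 120 in iDKO 2, 129 and 142 in iTKO 1 and 2, and 33.7 to 50.5 in the other 6 (iTKO log2 0.94, limma adjusted p = 0.234).

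Between the day 30 iTKO and iDKO libraries 0 members were higher and 0 lower by limma, against 0.218% and 0.544% of all genes. At an unadjusted p under 0.05, 0 were higher (5.47% of all genes) and 2 lower (5.97%). In 21 of 79 members the change was above 0, against 49.6% of all genes, with a median of -0.03 beside 0.00 for all genes. RPS18 had the smallest adjusted p (0.205, log2 -2.81), which became 0.00814 without iTKO 3. RPL6L, a copy of RPL6, had 20.1 to 27.4 FPKM in the iTKO and 20.6 and 23.1 in the iDKO libraries. Paneth cell markers summed to between 19548 and 28608 FPKM in the day 30 controls and 5141 to 10582 in the 5 mutant libraries, while the crypt markers overlapped at 762 to 1084 and 666 to 965. In every library 10 of 10 Paneth and at least 17 of 18 crypt genes were at 1 FPKM or more, and their part in the comparisons was not tested.

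**Figure D4:**
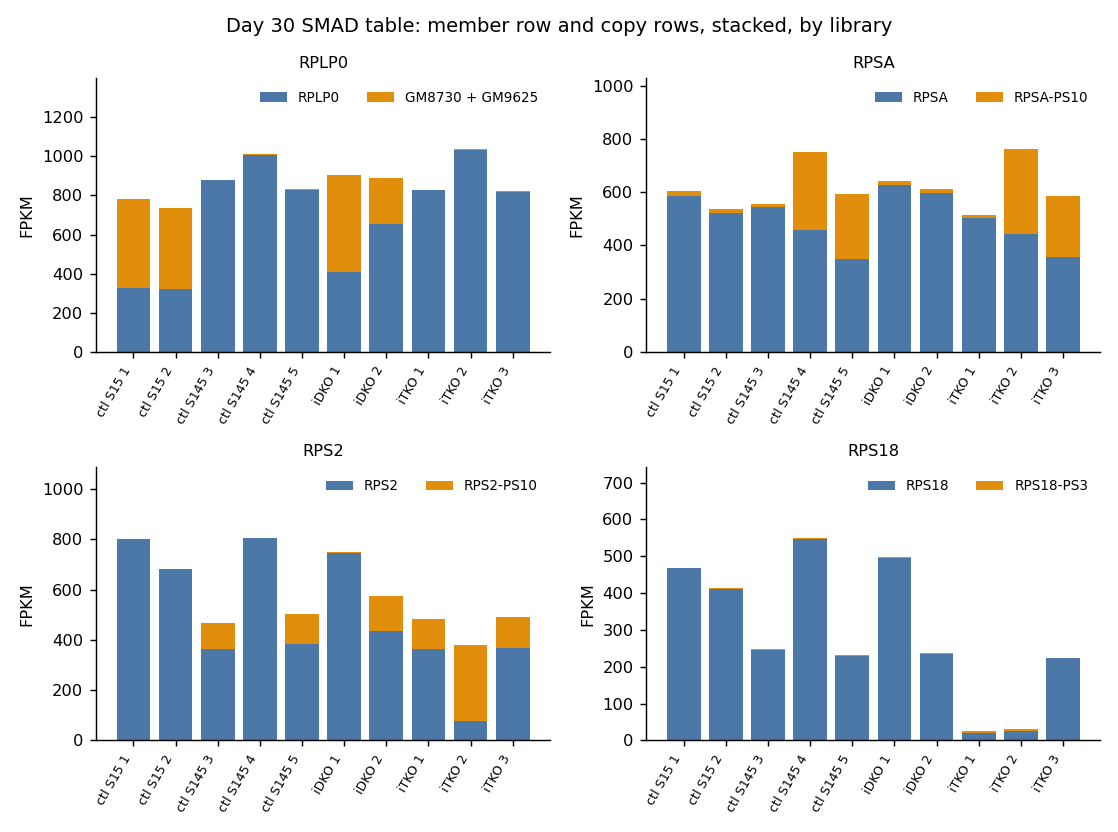
Stacked FPKM (vertical axes from 0) of RPLP0, RPSA, RPS2 and RPS18 (blue) and of their copy rows (orange) in the 10 day 30 SMAD libraries (horizontal axes; ctl S15 are SMAD1/5-line and ctl S145 SMAD1/4/5-line controls). The RPLP0 copies hold 26.1% to 58.3% of the pair in the 4 SMAD1/5-line libraries and at most 0.294% in the other 6, while the RPS18 copy row stays at or below 6.23 FPKM in all 10.

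The 2 kinds of day 30 control served as a check of read assignment. Compared with each other (SMAD1/5-line with tamoxifen minus SMAD1/4/5-line with oil), 0 of 79 members were higher or lower by limma, against 0.0168% and 0.00% of all genes. At an unadjusted p under 0.05, 0 were higher (2.76% of all genes) and 6 lower (2.51%). Changes were above 0 for 23 members, against 51.7% of all genes, in 8 both SMAD1/5-line controls were below the other 3, against 9.52%, and the median was -0.03 beside 0.01. The 2 genes called of 11939 were GM8730 and GM9625, the copies of RPLP0.

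RPLP0 itself was at 325 and 321 FPKM in the SMAD1/5-line controls and 879, 1010 and 830 in the SMAD1/4/5-line controls (log2 -1.48 ± 0.19, limma adjusted p = 0.0921). At day 30 the split ran with the line of mice in all 10 libraries, but at day 6, within the SMAD1/5 table, the same copies divided libraries of both genotypes, as given above. GM8730 and GM9625 summed to 455 and 414 FPKM in controls 1 and 2 and 494 and 231 in iDKO 1 and 2, and to between 1.06 and 2.98 in the 3 other controls and 3 iTKO libraries. RPLP0 was at 410 and 656 in the iDKO and 828, 1034 and 820 in the iTKO libraries. Sums of the 3 rows overlapped, at 781, 735, 880, 1013 and 833 FPKM in the controls, 904 and 888 in the iDKO and 829, 1037 and 822 in the iTKO libraries, and the summed difference between control kinds was -0.26 (limma adjusted p = 0.921). In the TBX3 table the copies held at most 1.34% of the pair.

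RPSA was divided within the SMAD1/4/5 line, where control 3 and iTKO 1 had a low RPSA-PS10 and the other libraries a high one. All SMAD1/5-line libraries had a low one. RPSA-PS10 was at 295 and 242 FPKM in controls 4 and 5 and 318 and 229 in iTKO 2 and 3, where it held 39.1% to 41.7% of the pair, and at 11.7 to 18.5 in the other 6 libraries. RPSA was at 444 and 356 FPKM in iTKO 2 and 3 and 504 in iTKO 1. Its change in the iTKO was -0.17 alone and 0.02 with the copy summed. RPL31, a large subunit protein, was another of the 6 members lower in the SMAD1/5-line controls at an unadjusted p under 0.05, at 252 ± 21.9 (SD, n = 2) against 328 ± 47.1 FPKM (n = 3; limma adjusted p = 0.921).

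In the day 30 TBX3 iKO 0 of 78 members rose and 0 fell, against 1.34% and 2.08% of all 9794 genes tested (limma). At an unadjusted p under 0.05, 1 was higher (6.49% of all genes) and 1 lower (10.8%). In 67 members the change was above 0, against 40.6% of all genes, with a median of 0.13 beside -0.06. That median ranged from -0.11 to 0.33 as single libraries were left out. RPLP1 was at 352, 178 and 272 FPKM in the controls and 315, 447 and 217 in the iKO libraries, and RPLP0 at 219, 145.4 and 176 and then 208, 264 and 178. Both groups overlapped in each, with control 2 the lowest and iKO 2 the highest library for both genes. RPS4L had the largest difference above 0 (log2 0.76 ± 0.31, limma adjusted p = 0.272), with 24.5, 9.82 and 18.6 FPKM in the controls and 24.1, 32.9 and 28.97 in the iKO libraries.

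RPS2 had the largest difference there (log2 -2.29 ± 0.93, limma adjusted p = 0.266), with 168, 43.5 and 69.5 FPKM in the controls and 69.9, 10.8 and 5.12 in the iKO libraries. RPS2-PS10 was at 3.21, 52.0 and 75.5 FPKM in the controls and 78.1, 168 and 124 in the iKO libraries, and so held 1.87% of the pair in control 1 and 96.0% in iKO 3. The sums were 172, 95.5 and 144.9 and then 148, 179 and 130 FPKM, overlapping, and the change with copies summed was 0.17 (limma adjusted p = 0.779). RPL34 stood between 10.5 and 16.4 FPKM in all libraries of the same table, and RPL34-PS1 between 15.1 and 124. The copy held 51.1% to 90.2% of the pair, and the sums were not steady, at 28.9 to 140 FPKM.

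Other genes of ribosome production and translation, from fixed lists, were read from the same fits, without the replicate block. In the day 6 SMAD1/5 iDKO, 7 of 38 tested ribosome biogenesis factors rose and 0 fell, with a median log2 change of 0.61, among them EBNA1BP2 (0.56) and BOP1 (0.51), which act in large subunit assembly. Of 23 initiation and elongation factors 13 rose and 0 fell (median 0.52). EIF4G2, an initiation factor related to the cap-complex scaffold, went from 57.7 ± 4.91 to 127 ± 2.25 FPKM (SD, n = 3; log2 1.13, limma adjusted p = 0.000795). Of 19 translation factors with TOP mRNAs 11 rose and 0 fell (median 0.50), BTF3, a nascent-chain factor, with the smallest adjusted p (0.00649, limma; log2 0.63). RNA polymerase I and its factors had 2 of 13 higher (median 0.43), and 3 of 10 ribosomal protein fusions and paralogs outside the symbol rule rose (median 0.49), among them RPL7L1 (0.62). Mitochondrial ribosomal proteins, which build the ribosome inside mitochondria, had 10 of 77 higher and 0 lower (median 0.24). The medians stand beside 0.18 for all genes, of which 15.5% rose.

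Regulators of ribosome production did not move in 1 direction: 2 of 19 rose and 3 fell (median 0.11). Among all genes tested 15.5% rose and 8.26% fell. MYCN, a MYC family transcription factor, went from 0.490 ± 0.314 to 5.15 ± 1.41 FPKM (SD, n = 3; log2 2.54, limma adjusted p = 0.00224), and MAX, the partner of MYC proteins, fell from 136 ± 21.5 to 90.6 ± 12.2 FPKM. EIF4EBP1, which blocks cap-dependent initiation, rose (log2 0.99, limma adjusted p = 0.0325).

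In the SMAD4 iKO these lists had medians of 0.40 for biogenesis factors (36 of 38 above 0), 0.39 for initiation and elongation factors, 0.32 for translation factors with TOP mRNAs (20 of 20 above 0) and 0.27 for mitochondrial ribosomal proteins, beside 0.03 for all genes, with 0 genes past the threshold in each (limma). NPM1, a nucleolar chaperone, had a log2 change of 0.72 (limma adjusted p = 0.0659). Of 18 regulators EIF4EBP1 rose (log2 1.47, limma adjusted p = 0.0209) and MXD1, an antagonist of MYC, fell (-1.08, 0.0313). Among all genes tested 1.28% rose and 2.14% fell.

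At day 30 the list medians were mostly smaller in size than at day 6, and not all lay at the median of all genes (the plot of list medians). In the SMAD1/5 iDKO 0 of 38 biogenesis factors passed the threshold (median 0.20), and 4 of 23 initiation and elongation factors rose, beside 9.43% of all genes, EIF4G2 from 543 ± 31.1 (n = 5) to 1109 ± 95.9 FPKM (n = 2; log2 1.03, limma adjusted p = 9.8e-05). MYCN rose there too, from 0.944 ± 0.328 to 8.18 ± 3.64 FPKM (log2 2.55), and 4 of 19 regulators fell, among them MXD1 and MAX, beside 9.31% of all genes. RPL7L1 rose in the iDKO (log2 0.39) and in the iTKO (0.27), which share their controls. In the iTKO 1 of 38 biogenesis factors rose (LTV1, log2 0.47) and 2 fell (SBDS and RRP1B), beside 9.13% and 8.95% of all genes, and EIF4G2 rose to 719 ± 44.4 FPKM (n = 3; log2 0.40). EIF4G2 was lower in the iTKO than in the iDKO (log2 -0.62, limma adjusted p = 0.0296). In the TBX3 iKO 0 genes of any of these lists passed the threshold by limma, and the medians lay between -0.11 and 0.13.

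**Figure D5:**
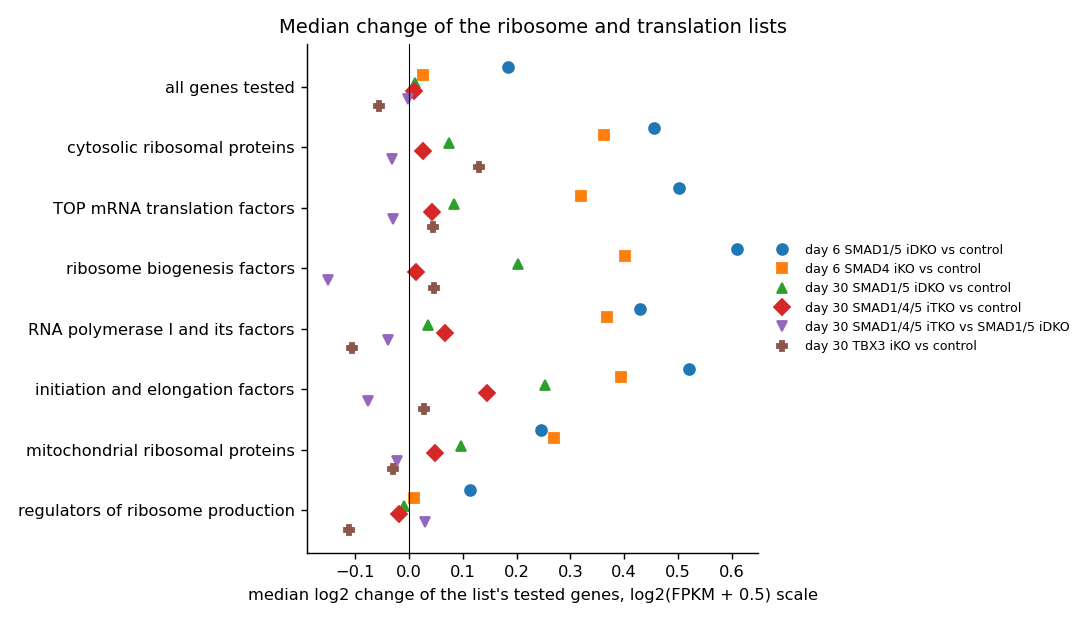
Median log2 change (horizontal axis, log2(FPKM + 0.5) scale) of the tested genes of 7 lists and of all genes tested (vertical axis) in 6 comparisons (symbols). In the 2 day 6 comparisons all lists but the regulators lie between 0.24 and 0.61, and at day 30 all 7 lie between -0.15 and 0.25.

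As checks of the labels, SMAD4 was at 24.9 and 22.9 FPKM in the SMAD4 controls and 7.19 and 5.11 in the iKO libraries, and in the day 30 table at 128 to 163 in controls and iDKO and 32.1 to 46.7 in iTKO libraries. TBX3 was at 45.5 to 56.3 in its controls and 7.53 to 22.9 in the iKO. SMAD1 overlapped between groups and SMAD5 was higher in the SMAD1/5 iDKO than in controls (10.4 to 13.1 against 5.69 to 6.33 FPKM at day 6), and a whole-gene value does not show whether an exon was deleted. All 9 epithelial markers were at 1 FPKM or more in every library. Endothelial markers summed to at most 4.72 FPKM and fibroblast and muscle markers to at most 12.96.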

How the data were processed

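The deposited values were FPKM per gene symbol, made by the authors from paired 150-base reads and scaled separately in each of 4 tables. The submitters' processing notes name HISAT2 2.2.1, Subread and featureCounts 2.0.1, and 2 builds, GRCm39 and mm10, and do not assign them to tables. How reads that fit several genes were counted is not given in the sources used here. Where a symbol was repeated, the row of the highest mean was kept. The rows left out included 3 member rows in the day 6 SMAD1/5 table and 3 in the day 30 TBX3 table. Depth, approximate and read from the smallest FPKM steps, was 9.95 to 30.5 megafragments in 22 libraries.

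Genes reaching 1 FPKM in a number of libraries equal to the size of the smallest genotype group were tested with limma 3.58.1 (R 4.3.3; trend on) on log2(FPKM + 0.5), so that changes of low genes are understated, with Benjamini-Hochberg adjustment over all genes of a table and a threshold of 0.05. The day 30 SMAD libraries shared 1 fit. The fit was tested on simulated data. At day 6 the SMAD1/5 libraries of equal number deviated together (residual correlations 0.143, 0.583 and 0.221). The main fit did not pair them. The p-values, calls and list counts given for that table leave the pairing out, except where the replicate block is named. In the day 30 and TBX3 tables the correlations were not all above 0.1, and in the SMAD4 table, with 2 pairs, it was 0.283. Named members were a fixed set of 15 symbols where present, up to 6 called in each direction and the 3 largest differences either way, and up to 3 of each other list by adjusted p. Outside that rule, RPL19, RPL27 and RPL7A complete the members that rose at day 6, and the levels of RPL24, RPL13A, RPS6 and RPL34 and the copy rows shown were chosen after their values were seen. Results of some single members are not reported here. Members and lists were chosen with earlier results of these data known. Alternatives varied the pseudocount, filter, scaling, trend, block and controls, left out single libraries and, added after seeing the data, summed members with their copies. Tables were handled with Python 3.11.15 and pandas 2.3.3.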

Additional observations from a re-analysis of the deposited data

Results flagged for a closer look

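Each member's 5 day 30 controls were examined for a single library far from the others (a gap to the nearest of more than 0.71 of the range). Of 79 members 8 had one, of which 7 are given here, and chance gives about 1 in 20. RPL28 at 482 FPKM, RPL5 at 453, RPS13 at 127, RPS15 at 433, RPS16 at 358 and RPS19 at 280 stood apart in control 4, of the SMAD1/4/5 line, the library with the highest share of summed FPKM in members (4.28%). RPL30 at 117 FPKM stood apart in control 3, of the same line.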

How the results depend on the processing

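Numbers of members called depended on the settings. The 10 members that rose in the day 6 SMAD1/5 iDKO became 2 with no filter, 0 with median-centred libraries, 19 with quantile normalisation, 4 with no trend and 0 to 20 as single libraries were left out (20 without control 1, 5 without control 2 or control 3, 2 without iDKO 1, 0 without iDKO 2 or iDKO 3). With the replicate block, and so the pairing, they became 5. Median-centring moved the median of all genes from 0.18 to 0.01, the members' median from 0.46 to 0.28, and the split of all genes from 1681 higher and 894 lower to 767 and 1193; quantile normalisation gave 1117 and 1162. RPL29 kept its call in all 17 settings. The 1 member higher in the day 30 iDKO became 0 with no filter, quantile normalisation, the same sum in each library, the same sum over all genes but the members, no trend, the replicate block or only the 2 groups compared, 2 with only the controls of the same line, and 0 to 1 as single libraries were left out (0 without control 1, 2, 3 or 5 or iDKO 1). In the iTKO the 1 member lower became 0 with the replicate block and 0 to 1 as libraries were left out, and the 0 higher became 0 to 1 (1 without control 4 or iTKO 3); between iTKO and iDKO the 0 lower became 0 to 1 (1 without iTKO 3). The members' median in the SMAD4 iKO was 0.46 in place of 0.36 with the same sum over all genes but the members. The causes were not tested. Of 1952 recomputed values of single named members 66 lost a call, 5 gained one, and 102, none of them past the threshold before, changed sign. Limits: groups of 2 to 5 libraries, no counts behind the FPKM, unknown depth in the SMAD4 table, and members whose reads fit other genes. In the SMAD4 and TBX3 tables the replicate block left 0 members called.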
